A study of Mus musculus with 16 samples.

Results

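The genes described here encode the pore-forming HCN pacemaker channel subunits Hcn2, Hcn3 and Hcn4, the sodium leak channel Nalcn, and the large proteins Unc79 and Unc80 that are bound to NALCN. They were chosen by name and matched by Ensembl identifier, and they are 6 of the 25006 genes in the count files. Messenger RNA bound to tagged ribosomes (RiboTag) was sequenced from substantia nigra, with 1 library for each of 16 mice. The 8 controls had the genotype DAT-Cre+/-, and the 8 animals named MCU-KO had DAT-Cre+/- MCU fl/fl. All mice carried 1 DAT-Cre allele, which is active in cells that express the dopamine transporter, and all received a Cre-dependent viral vector for the ribosome tag. Tissue was taken at postnatal day 45, 30 days after the injection. The MCU-KO mice differed from the controls in the floxed alleles of Mcu, the pore of the mitochondrial calcium uniporter, so the deletion in this model is limited to cells with Cre activity. They also came from another cross. According to the authors, these controls were bred from DAT-Cre+/+ and C57/BL6 mice, and MCU-KO mice from MCU fl/fl and DAT-Cre mice. Breeding line and genotype therefore cannot be told apart.

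HCN channels open when the membrane is hyperpolarized and carry a mixed sodium and potassium current, and cyclic AMP makes them open more readily. This current brings the membrane back toward threshold between spikes and is a classical feature of dopaminergic neurons of the substantia nigra. NALCN carries a steady inward sodium current that depolarizes the membrane at rest, and it needs UNC79 and UNC80 to work in neurons. Both conductances are known to take part in the slow autonomous firing of these neurons.

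Library totals ranged from 18999107 to 22016362 counts in control mice and from 14129527 to 20582204 in MCU-KO mice, where mouse 8 had the lowest total. Counts are given below as CPM (counts divided by the TMM-scaled library size, on the usual CPM scale), and 3 counts corresponded to between 0.135 and 0.214 CPM. Mcu had 6.25 to 43.1 CPM in control mice (median 20.8) and 0.301 to 21.3 in MCU-KO mice (median 12.8), so the genotypes overlapped in the targeted gene, and 1 of 8 MCU-KO mice lay above the control median. Mcu had a log2 fold change of −1.19 (95% interval −2.41 to 0.038). The count covers the whole gene, so transcripts that lack only the floxed part would still be counted. The authors checked the knockout by other means. They used quantitative PCR of Mcu in RiboTag RNA, and mitochondrial calcium imaging, in which MCU-KO neurons responded less. The dopaminergic markers Th, Slc6a3, Slc18a2 and Ddc had mean levels of 2512, 945, 324 and 534 CPM per kb in control mice, each above the 28.3 of Hcn2, the highest of the 6 genes on that scale. The 10 dopaminergic markers summed to between 14701 and 18972 CPM in control mice and between 12618 and 21182 in MCU-KO mice. Markers of other cells were present as well. The 6 oligodendrocyte markers summed to between 2664 and 5207 CPM in control mice and between 3102 and 6289 in MCU-KO mice. The 6 astrocyte markers summed to 326 to 659 CPM in control mice and 456 to 897 in MCU-KO mice. The 5 markers of GABAergic neurons (Gad1, Gad2, Slc32a1, Pvalb and Sst) summed to between 192 and 433 CPM in control mice and between 172 and 401 in MCU-KO mice, and none was at 0 in any mouse. HCN and NALCN genes are also used by such neurons, and the part of these cells in the levels below was not tested. In such pooled tissue, fewer cells of a type and less RNA per cell cannot be told apart.

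The HCN genes are close relatives, so it matters whether reads could be assigned to one of them. The 60 bases of Hcn2 coding sequence with the most matches to Hcn3 and Hcn4 are shown here, with the matching stretches. Likeness of Hcn3 to Hcn4 did not enter this choice. Sequences are from GENCODE M21 transcripts (GRCm38), 5′ to 3′ on the strand of each gene, with capitals at the bases that are not the same in all 3 genes.
Hcn2: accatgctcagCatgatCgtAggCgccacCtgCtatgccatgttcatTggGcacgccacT
Hcn3: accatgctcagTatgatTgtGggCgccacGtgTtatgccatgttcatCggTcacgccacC
Hcn4: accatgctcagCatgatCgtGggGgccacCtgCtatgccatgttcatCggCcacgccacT
The stretches lie in exons at chr10:79729004-79729063 (Hcn2, plus strand), chr3:89150910-89150969 (Hcn3, minus strand) and chr9:58855636-58855695 (Hcn4, plus strand). Of these 60 bases, 51 were shared by all 3, with 56 shared by Hcn2 and Hcn4 and 52 by Hcn2 and Hcn3. The longest run of identical bases was 33 between the coding sequences of Hcn2 and Hcn3 and 32 in the other 2 HCN pairs. Of the stretches of 50 bases in annotated transcripts, 0 of 3190 in Hcn2, 0 of 6069 in Hcn4 and 0 of 14510 in Unc80 occur in transcripts of another gene. In Nalcn this was 0.297% and in Unc79 0.261%. Hcn3 was the exception at 15.8%, all of it shared with Pklr, the pyruvate kinase gene on the opposite strand, whose exons overlap the last 711 bases of Hcn3 (chr3:89146074-89146784, 17.1% of the Hcn3 exon bases). Pklr was listed at 0 in every mouse. The strand setting of the counting is not given in the sources used here. It is therefore not known whether reads from the overlap entered the Hcn3 count, while the overlap is part of its exon length.

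Among the HCN genes, Hcn2 was the most abundant and Hcn4 the least in control mice. HCN2 is a subunit with intermediate opening speed and strong sensitivity to cyclic AMP. Hcn2 (chromosome 10, 79716634 to 79736108, plus strand, 8 exons in its longest coding transcript) had between 1339 and 2637 counts, which corresponded to 61.2 CPM in the lowest control mouse, a median of 88.1 and 124 in the highest. The control mice thus lay within 2.03-fold of each other. Per kb of merged exon length, the Hcn2 level was 28.3 ± 7.14 CPM per kb (SD, n = 8), above 82.6% of the 12390 genes tested. HCN3 differs from its relatives in that cyclic AMP has little effect on its opening. Hcn3 (chromosome 3, 89146074 to 89160196, minus strand) had 27.1 CPM in the lowest control mouse, a median of 47.1 and 73.2 in the highest. Its level per kb was 11.98 ± 3.97 CPM (SD, n = 8). HCN4 is the slowest to open and the main pacemaker subunit of the heart. Hcn4 (chromosome 9, 58823412 to 58863175, plus strand) had 9.77 CPM in the lowest control mouse, a median of 19.2 and 26.0 in the highest. Its level per kb of 3.05 ± 0.987 CPM (SD, n = 8) lay above 38.5% of the genes tested. The ranking covers the HCN genes analysed here, not the whole family.

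The order Hcn2, Hcn3, Hcn4 per kb held in 8 of 8 control mice and in 8 of 8 MCU-KO mice. In control mice, Hcn2 exceeded Hcn3 per kb by a mean log2 ratio of 1.27 ± 0.47 (SD, n = 8), a 2.41-fold difference (adjusted p = 0.0107 over the 15 pairs of the 6 genes, from an exact two-sided test that flips signs within mice). It exceeded Hcn4 by 3.24 ± 0.65 (SD, n = 8), or 9.45-fold, and Hcn3 exceeded Hcn4 by 1.97 ± 0.58 (SD, n = 8), or 3.92-fold, with the same adjusted p from the exact test. The raw p of 0.00781 was the smallest that 8 mice allow. As a share of the summed level per kb of the 3 genes, Hcn2 made up 65.2% ± 7.09 (SD, n = 8), Hcn3 27.5% ± 6.00 (SD, n = 8) and Hcn4 7.26% ± 2.46 (SD, n = 8) in control mice. In MCU-KO mice these shares were 61.6% ± 7.16 (SD, n = 8), 31.5% ± 7.38 (SD, n = 8) and 6.83% ± 2.77 (SD, n = 8).

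**Figure D1:**
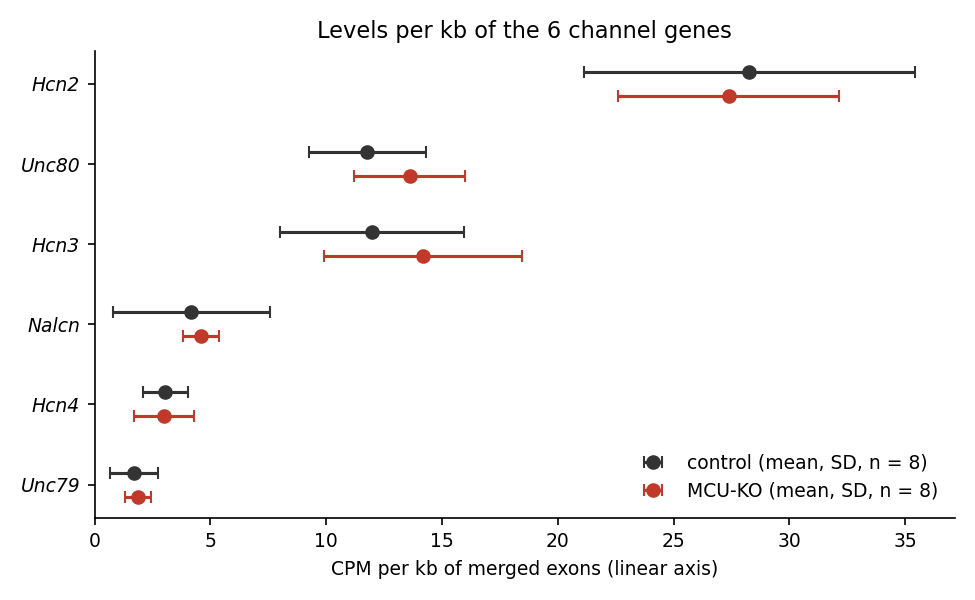
Mean level of each gene in CPM per kb of merged exons (linear horizontal axis) with SD as bars, for 8 control mice (black) and 8 MCU-KO mice (red). Hcn2 lies highest at 28.3 CPM per kb in control mice, Unc80 and Hcn3 lie next with overlapping bars, and Unc79 lies lowest at 1.72.

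Within the NALCN complex, the auxiliary gene Unc80 was more abundant than the pore gene Nalcn, and Unc79 was the least abundant. UNC80 is a scaffold that links NALCN to UNC79. Unc80 (chromosome 1, 66468367 to 66699148, plus strand, 65 exons in its longest coding transcript) had 127 CPM in the lowest control mouse, a median of 158 and 226 in the highest. Its control mice were close together, within 1.77-fold, and its level per kb was 11.8 ± 2.53 CPM (SD, n = 8). Nalcn (chromosome 14, 123276634 to 123627144, minus strand, 44 exons) encodes the leak pore itself. It had 169, 68.0, 86.6, 20.4, 11.2, 39.2, 51.3 and 45.6 CPM in control mice 1 to 8. Control mouse 1 was high and control mouse 5 low, 15.04-fold apart, and the level per kb was 4.18 ± 3.38 CPM (SD, n = 8). UNC79 helps to stabilize the complex. Unc79 (chromosome 12, 102948859 to 103184065, plus strand, 49 exons) had 28.9, 13.3, 29.6, 9.08, 2.64, 44.5, 27.7 and 40.04 CPM in control mice 1 to 8. Control mouse 5 was again the lowest, with 55 counts of Unc79 where the highest control mouse had 833. Its level per kb was 1.72 ± 1.04 CPM (SD, n = 8), above 28.6% of the genes tested.

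In control mice, Unc80 exceeded Nalcn per kb by 3.67-fold, and the log2 of Nalcn over Unc80 was −1.88 ± 0.99 (SD, n = 8; adjusted p = 0.0107, exact sign-flip test over the 15 pairs). The log2 of Unc79 over Unc80 was −3.15 ± 1.19 (SD, n = 8), an 8.89-fold difference with the same adjusted p, and Unc80 was the highest of the 3 in 8 of 8 control mice. Nalcn exceeded Unc79 in 7 of 8 control mice, 2.42-fold on average, with a log2 ratio of 1.28 ± 0.99 (SD, n = 8; adjusted p = 0.0293, exact test). With 7 control mice the exact test allows few small p values, and leaving out any of control mice 1, 2, 3, 4, 5 or 7 gave an adjusted p of 0.0586 for this pair. In MCU-KO mice the order Unc80, Nalcn, Unc79 was found in 8 of 8 mice. The size of these ratios depended on the length used for Nalcn, whose annotated exons merge to 14715 bases while its longest coding transcript has 7122. With the length of the longest coding transcript, Nalcn was 1.88-fold below Unc80 in place of 3.67-fold, and the adjusted p rose to 0.0533 (exact sign-flip test). Nalcn was then 3.11-fold above Unc79, a log2 ratio of 1.64, and was higher in 8 of 8 mice.

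Across both families, the order per kb of merged exons in control mice was Hcn2, then Unc80 and Hcn3, then Nalcn and Hcn4, and last Unc79. On this scale Hcn2 ranked first in each of the 8 control mice, 2.38-fold above Unc80 on average, and 13 of the 15 pairs differed with an adjusted p under 0.05 (exact sign-flip permutation test). With the length of the coding transcript, 10 of these 13 pairs passed in the same direction. Without division by length, 11 of the 15 pairs passed in the direction seen per kb. These included Hcn3 against Unc80, at a log2 ratio of −1.82 (adjusted p = 0.0117, exact test), and Hcn4 against Nalcn. Those 2 pairs had not passed per kb. Hcn2 against Nalcn, at 0.92 (adjusted p = 0.0541, exact test), and Hcn3 against Nalcn, at 0.031 (adjusted p = 0.953, exact test), no longer passed. Hcn4 against Unc79 did not pass either. Without division by length Unc80 lay above Hcn2 in 8 of 8 control mice, with a log2 ratio of Hcn2 to Unc80 of −0.92 (adjusted p = 0.0117, exact test), so the place of Hcn2 above Unc80 holds per kb and not in CPM. Per kb of merged exons, the 2 pairs of neighbours that did not pass were Hcn3 against Unc80, at −0.020 ± 0.40 on the log2 scale (SD, n = 8), and Hcn4 against Nalcn, at −0.11 ± 1.27 (SD, n = 8). In single mice the latter ranged from −1.43 to 2.36. It was −1.16 (adjusted p = 0.0586, exact test) with the length of the coding transcript and −1.38 (adjusted p = 0.0391, exact test) without division by length. In MCU-KO mice, where Nalcn varied less, Hcn4 lay below Nalcn by a log2 ratio of −0.70 (adjusted p = 0.0361, exact test). Hcn4 exceeded Unc79 by 1.16 ± 1.51 (SD, n = 8) in 7 of 8 mice (adjusted p = 0.0451, exact test), and this was 0.48 (adjusted p = 0.494, exact test) with the length of the coding transcript and 0.62 (adjusted p = 0.0837, exact test) in MCU-KO mice. Leaving out any one of control mice 1 to 7 also ended this call, with adjusted p from 0.0721 to 0.0901 (exact tests) and a log2 ratio of 0.70 without control mouse 5. In the same way, Hcn3 over Nalcn was 1.86 ± 1.03 (SD, n = 8) with merged exons and 0.86 (adjusted p = 0.0721, exact test) with the coding transcript.

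**Figure D2:**
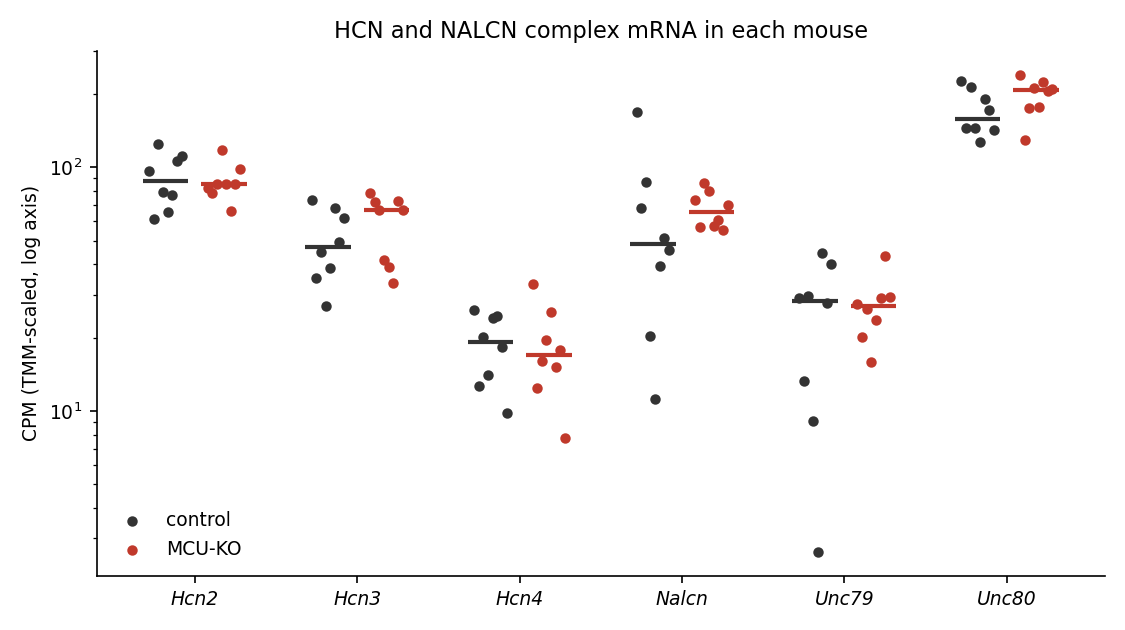
CPM of each gene in each mouse (logarithmic vertical axis), with control mice in black and MCU-KO mice in red and horizontal lines at the medians. The genotypes overlap for all 6 genes, and the control mice spread most for Nalcn (11.2 to 169 CPM) and Unc79 (2.64 to 44.5 CPM).

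The comparison of MCU-KO with control mice asks whether pacemaker and leak channel transcripts differed once the mitochondrial uniporter was deleted. The quasi-likelihood test of edgeR, adjusted over 12390 genes by the method of Benjamini and Hochberg, called 0 of the 6 genes at 0.05. It called 22 of all genes tested, or 0.178%, with 0.0888% higher and 0.0888% lower in MCU-KO mice. Before adjustment 0 of the 6 genes lay under 0.05, against 4.41% of all genes tested, and DESeq2 and limma also called 0 of the 6. The CPM of the genotypes overlapped in each of the 6 genes, while they did not overlap in 0.25% of all genes tested. Each of the 6 genes passed the filter on low counts, with at least 55 counts in every mouse.

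For the HCN genes, the intervals of the fold change were narrowest for Hcn2 and widest for Hcn4. Hcn2 had 66.2 CPM in the lowest MCU-KO mouse, a median of 85.3 and 118 in the highest, all within the range of the control mice. The log2 fold change of Hcn2 was −0.046, with a 95% interval from −0.38 to 0.29, or 0.767-fold to 1.22-fold. Hcn3 had 33.5, 67.0 and 78.6 CPM as the lowest, median and highest of the MCU-KO mice, and 5 of 8 lay above the control median. The fitted change of Hcn3 was 0.24 on the log2 scale (standard error 0.23, 95% interval −0.24 to 0.73). Hcn4 had 7.76, 16.9 and 33.1 CPM in the same order, and a log2 fold change of −0.020 (95% interval −0.72 to 0.68). For Hcn4, the least abundant of them, the interval thus ran from 0.606-fold to 1.60-fold.

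In the NALCN complex, the 3 fitted log2 fold changes were above 0, and 0 of the 3 passed the test. Unc80 had 130 CPM in the lowest MCU-KO mouse, a median of 207 and 240 in the highest, and 7 of 8 MCU-KO mice lay above the control median. For Unc80 the log2 fold change was 0.21 (standard error 0.14, 95% interval −0.081 to 0.50), with the smallest p of the 6 genes at 0.150 before adjustment and an adjusted p of 1.00 from edgeR. Nalcn had 73.5, 57.1, 86.3, 79.8, 57.3, 61.0, 55.2 and 70.0 CPM in MCU-KO mice 1 to 8. These values were within 1.56-fold of each other and lay above the control median of 48.4 in 8 of 8 mice, yet inside the range of the control mice. The log2 fold change of Nalcn was 0.14 (standard error 0.36, 95% interval −0.61 to 0.88). It was −0.021 without control mouse 5 and 0.55 without control mouse 1, the lowest and the highest control mouse. Unc79 had 15.95, 26.9 and 43.3 CPM as the lowest, median and highest of the MCU-KO mice, with a log2 fold change of 0.13 (95% interval −0.71 to 0.97), or −0.037 without control mouse 5. The coefficient of variation of Nalcn was 81.0% in control and 17.3% in MCU-KO mice, and that of Unc79 was 60.6% and 30.1%. This difference in spread between the genotypes was not tested. The biological coefficient of variation fitted by edgeR was 0.495 for Nalcn, where the trend for genes of its abundance was 0.326, while that of Hcn2 was 0.241 against a trend of 0.281.

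**Figure D3:**
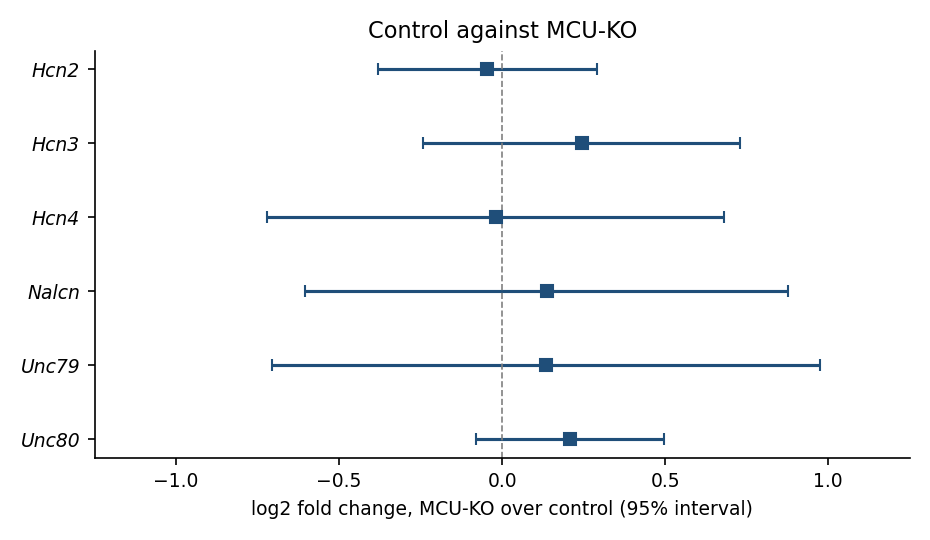
Log2 fold change of MCU-KO over control mice for each gene (squares) with 95% intervals from edgeR's quasi-likelihood fit. Each interval includes 0, and the intervals of Hcn2 and Unc80 are the narrowest.

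The proportions within each family were compared between genotypes as well. The log2 ratio of Hcn2 to Hcn3 was 1.27 ± 0.47 (SD, n = 8) in control and 1.00 ± 0.52 (SD, n = 8) in MCU-KO mice (adjusted p = 0.838 over 6 within-family pairs, two-sided exact permutation test over all splits of the mice into 8 and 8). For Hcn3 to Hcn4 the ratios were 1.97 and 2.28, and for Nalcn to Unc80 they were −1.88 and −1.56, with the same adjusted p in the exact test. In total, 0 of the 6 ratios had an adjusted p under 0.05, and 0 had a raw p under 0.05, in these exact permutation tests. The raw p lay between 0.285 and 0.917. Without control mouse 5, the mean log2 ratio of Nalcn to Unc80 in control mice was −1.64, against −1.56 in MCU-KO mice.

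The genes of the NALCN complex were then compared across mice, after the mean of each genotype had been removed from log2 CPM. Nalcn and Unc80 had a Pearson r of 0.60 over 16 mice (adjusted p = 0.0467, permutation test, adjusted over 6 pairs) and a Spearman rho of 0.46 (adjusted p = 0.215, permutation test). Nalcn and Unc79 had r = 0.64 (adjusted p = 0.0467, permutation test) and rho = 0.18 (adjusted p = 0.617, permutation test). Unc79 and Unc80 had r = 0.53 (adjusted p = 0.0627, permutation test). These shuffles ran over all 16 mice, not within genotype, although Nalcn and Unc79 varied more among control mice. The p values do not allow for that difference in spread. For the first 2 pairs, without the 2 mice farthest from the median of Nalcn, r was 0.34 and 0.25. Leaving out those mice also narrows the range of Nalcn. Without control mouse 5 the r values were 0.51 (adjusted p = 0.306, permutation test) and 0.25 (adjusted p = 0.556, permutation test), with 0 of 6 pairs past the threshold. Within control mice alone, r was 0.78 for Nalcn and Unc80 (p = 0.0189, exact permutation test, n = 8, not adjusted) and 0.71 for Nalcn and Unc79 (p = 0.0525, exact permutation test, n = 8). Within MCU-KO mice r was 0.29 and −0.36 (p = 0.512 and 0.393, exact permutation tests, n = 8). The HCN genes had r between −0.059 and 0.29 with each other, and 0 of their 3 pairs passed. Control mouse 5, which was lowest for all 3 genes of the NALCN complex, was also seventh of the 8 control mice for the summed dopaminergic (16092 CPM), GABAergic (210 CPM) and oligodendrocyte markers (3223 CPM), and sixth for the astrocyte markers (452 CPM). Its rank was 4 for the glutamatergic, 5 for the microglial, and 6 for the oligodendrocyte precursor and endothelial markers. Control mouse 3, with the lowest dopaminergic sum (14701 CPM), had 86.6 CPM of Nalcn, 29.6 of Unc79 and 213 of Unc80. The part of cell composition in these relations was not tested.

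**Figure D4:**
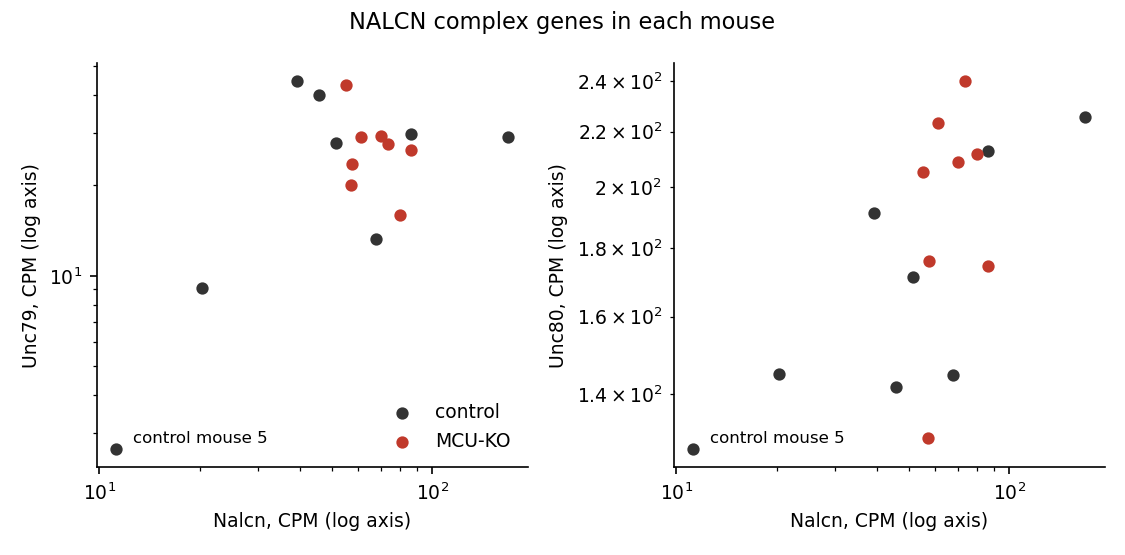
CPM of Unc79 (left) and Unc80 (right) against CPM of Nalcn in each mouse, both axes logarithmic, with control mice in black and MCU-KO mice in red. Control mouse 5 lies lowest for all 3 genes, at 11.2 CPM of Nalcn, 2.64 of Unc79 and 127 of Unc80.

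The genes whose levels followed each channel gene most closely across the 16 mice are given as a description, out of 8932 tested genes with at least 10 counts in every mouse and with the genotype means removed. For Hcn2 these were Olfm2 (r = 0.74), Zbtb38 and Abi1. For Hcn3 they were 2610507B11Rik (r = 0.84), 1300002E11Rik and Rflnb, and for Hcn4 they were Tyw5 (r = 0.82), Otud4 and Plppr5. Nalcn was followed most closely by Anapc10 (r = 0.89), Hipk1 and Mfap1b, Unc79 by Ccl27a (r = 0.91), P4ha2 and Snx14, and Unc80 by Txndc15 (r = 0.86), Neo1 and Yy1. None of the 6 channel genes was among these neighbours of another. The likeness of Nalcn to Mfap1b was seen within control mice (r = 0.92), whereas in MCU-KO mice r was −0.31. For the other neighbours of Nalcn and Unc79, r was 0.91 to 0.97 within control mice and 0.48 to 0.68 within MCU-KO mice. For those of Unc80 it was 0.82 to 0.84 and 0.83 to 0.88. Nalcn and Unc79 varied more among control mice, and the part of that spread in these r values was not tested.

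Partners and regulators of the channels were present at differing levels, and 0 of their genes passed the test between the genotypes. Of 8 HCN regulators, 3 passed the filter on low counts, with 0 called and a median log2 fold change of −0.14, where all genes tested had a median of 0.0025. Pex5l, which encodes the HCN auxiliary subunit TRIP8b, was the highest of them per kb, with 105 ± 30.0 CPM (SD, n = 8) in control and 111 ± 25.6 (SD, n = 8) in MCU-KO mice. Pex5l had a log2 fold change of 0.088 (standard error 0.18). Nedd4l, a ubiquitin ligase, followed with 61.6 ± 13.4 CPM (SD, n = 8) in control mice and a log2 fold change of −0.14. Flna, an actin-binding protein, had the smallest p of the list and ranged from 0.0449 to 31.7 CPM in control mice. Its change was fitted at −1.10 on the log2 scale (standard error 1.30). Kcne3 and Cav3 were at 0 in every mouse. Of 9 tested NALCN partners, 0 were called and 0 had an unadjusted p under 0.05 (median log2 fold change −0.024). The dopamine D2 receptor gene Drd2 and the GABA-B receptor gene Gabbr1 were the most abundant of them per kb, with 382 ± 55.9 CPM of Drd2 (SD, n = 8) and 677 ± 104 CPM of Gabbr1 (SD, n = 8) in control mice. Drd2 had the smallest p of this list at 0.139 before adjustment, and edgeR put its change at −0.18 on the log2 scale (standard error 0.12, adjusted p = 1.00). Fam155a, which encodes a further subunit of the NALCN complex and was chosen after its values were seen, had 166 ± 32.7 CPM (SD, n = 8) in control and 164 ± 35.8 (SD, n = 8) in MCU-KO mice. Per kb it had 25.5 ± 5.01 CPM (SD, n = 8) in control mice, beside 11.8 for Unc80, a difference that was not tested. Fam155a had a log2 fold change of −0.024 (standard error 0.15).

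The genes of cyclic AMP synthesis and breakdown, which set the signal that HCN channels sense, had 0 of 21 tested genes called. Their median log2 fold change was −0.063. Before adjustment 1 of the 21 lay under 0.05 in the edgeR test, near the share of 4.41% among all genes tested. Gnas, the stimulatory G protein subunit, had the highest level with 2574 ± 193 CPM (SD, n = 8) in control and 2477 ± 131 (SD, n = 8) in MCU-KO mice. Adcy2, an adenylyl cyclase, had 109 ± 31.7 CPM (SD, n = 8) in control mice. That 1 gene was Pde4a, a phosphodiesterase that degrades cyclic AMP. It had 123 ± 41.0 CPM (SD, n = 8) in control and 81.6 ± 23.3 (SD, n = 8) in MCU-KO mice, which edgeR fitted as −0.59 on the log2 scale (standard error 0.20, adjusted p = 0.793).

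Among the other background channels, the potassium leak channels that oppose NALCN had 0 of 9 tested genes called and 3 of 12 genes at 0 in every mouse (Kcnk5, Kcnk16 and Kcnk18). Kcnk1, which encodes TWIK-1, was the highest per kb with 64.2 ± 19.0 CPM (SD, n = 8) in control and 51.1 ± 13.9 (SD, n = 8) in MCU-KO mice, followed by Kcnk2, which encodes TREK-1, with 28.7 ± 7.23 CPM (SD, n = 8) in control mice. Of the TRP cation channels, 0 of 10 tested genes were called, with a median log2 fold change of 0.14. Trpv2 and Trpc6 were the highest per kb, with 51.4 ± 17.3 and 50.3 ± 24.8 CPM (SD, n = 8) in control mice. Trpm7 had the smallest p of this list and edgeR fitted it at 0.69 on the log2 scale (standard error 0.40, adjusted p = 1.00).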

How the data were processed

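The authors removed adapters with cutadapt (Trim Galore in the submitters' processing notes). Alignment used STAR and the mm10 genome, and reads falling in Ensembl genes were summed by htseq-count. The authors deposited whole-number counts, without normalization. Versions and strand setting are not given in the sources used here. Symbols, coordinates and exon lengths were taken from GENCODE M21 (GRCm38, the build of mm10), which matched 24942 identifiers. Genotypes were compared with edgeR 4.0.16 in R 4.3.3 (filterByExpr, TMM, quasi-likelihood test, Benjamini-Hochberg over 12390 genes, threshold 0.05). Alternatives used DESeq2 1.42.0 and limma 3.58.1. Levels per kb are CPM divided by merged exon length, with 1 count added for log2 ratios. Ratios were tested by exact sign-flip tests over 256 sign patterns and exact tests over all splits of the mice into 8 and 8. Correlations used log2 CPM (prior count 2) and 100000 resamples. Fits and exact tests were tested on simulated data, but how often small changes are called is not given here. The labels say that each library is 1 mouse. Named were the 6 genes, Mcu, marker genes, the 3 genes most like each member, and, per list, any called gene, that of smallest p and the 2 of highest level per kb. The members and lists were chosen with earlier results of these data known. The floor of 3 counts covers counting error only. Mouse numbers occur in both genotypes but name different animals.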

Additional observations from a re-analysis of the deposited data

How the results depend on the processing

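In 25 alternative fits (DESeq2, limma with sample quality weights, other normalizations and filters, a glial marker or Xist covariate, a replicate block and the omission of each mouse), 0 of the 6 genes and 0 genes of the partner and leak channel lists were called. Over all genes, DESeq2 called 90 of 16171 and the replicate block 14 of 12390, against 22 of 12390. Same-numbered mice did not deviate together (r from −0.061 to 0.031), so the numbers were not taken as a pairing, and with the block the log2 fold change was 0.51 for Nalcn and 0.42 for Unc79. With limma these were 0.53 and 0.37. Some signs reversed, mostly of values near 0, and the cause was not tested. The log2 fold change of Hcn4 was 0.070 with limma and 0.057 with the glial covariate, where that of Nalcn was −0.048. With 1 mouse left out, log2 fold changes ranged from −0.12 to 0.037 for Hcn2, 0.16 to 0.35 for Hcn3, −0.19 to 0.096 for Hcn4, −0.021 to 0.55 for Nalcn and −0.037 to 0.32 for Unc79. Without division by length, the log2 ratio of Hcn2 to Unc80 was −0.92, where per kb Hcn2 was 2.38-fold higher, and that of Hcn4 to Unc79 was −0.059. The log2 ratio of Hcn3 to Unc80 was 0.018 in MCU-KO mice and −0.11 to 0.066 with 1 control mouse left out, and that of Hcn4 to Nalcn was −0.47 to 0.075. The number of correlated pairs past the threshold was 2 by Pearson's r, 0 by Spearman's rho, 0 without the 2 farthest mice and 0 without control mouse 5, an alternative added after seeing the data. Of the 15 pairs in the order of levels, 11 to 13 passed in the same direction with 1 control mouse left out.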
